A study of Mus musculus with 4 samples.

Results

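Interferon-inducible GTPases are the genes described here. The 7 members, Tgtp2, Iigp1, Irgm1, Irgm2, Igtp, Gbp2 and Gbp3, were found by mapping the RefSeq accession of each array probe to these symbols, and they are 7 of the 20284 genes that the array's probes could be matched to. The members were chosen by their levels in these same 4 arrays and the differences between them, so those values are given as a description, with no test. Where a gene had several probes, the probe with the highest mean signal over the 4 arrays stands for the gene and the other probes are reported beside it.

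The arrays measured RNA of whole spleen from 5-day-old ICR mice, an outbred stock. The male CB-NP and female CB-NP groups were offspring of dams given carbon black nanoparticles (CB-NP) into the nose at 95 microg/kg per dose, in 2 doses on gestational days 5 and 9, and the male control and female control groups were offspring of dams given distilled water at 1 mL/kg per dose by the same schedule. RNA of the animals of a group was pooled before labelling, so each of the 4 groups is 1 pool read on 1 array. There are no replicates, the spread between animals or litters is not measured, and no difference below has a p-value.

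GTPases of this kind are proteins that cells make after interferon, above all interferon gamma, reaches its receptor. The receptor's kinases Jak1 and Jak2 start a signal that turns on a first wave of genes, including the transcription factor Irf1, which then acts on the GTPase promoters. In mice the immunity-related GTPases (IRG) and the guanylate-binding proteins (GBP) gather on the vacuoles in which intracellular parasites and bacteria live and help to break them open. Effector IRG proteins such as Tgtp2 and Iigp1 attack the vacuole, while the regulatory proteins Irgm1, Irgm2 and Igtp sit on the cell's own membranes and hold the effectors inactive there.

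The promoter sequences of the members are shown first because they can hold the 2 short elements through which interferon acts. The sequences were not taken from the arrays. The genes are grouped by their response to interferon, so matches are not independent of how the group is defined. One is the core of the interferon-stimulated response element (ISRE), searched as GAAA, any 2 bases and GAAA again, a form bound by IRF-family factors. The other is the core of the gamma-activated site (GAS), searched as TTCNNNGAA, an element of promoters that respond to interferon gamma. Both strands were searched in RefSeq promoter windows of GRCm38.p6, from 250 bases before to 50 bases after the start site. Tgtp2, Irgm1, Irgm2 and Igtp lie on chromosome 11, and Gbp2 and Gbp3 lie on chromosome 3. Of the members, 6 of 7 had an entry; Iigp1 is named only. The 60-base stretches run in the direction of transcription of each gene, 5′ to 3′, with motif matches in capitals.
Tgtp2: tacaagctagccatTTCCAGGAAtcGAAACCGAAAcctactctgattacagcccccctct
Irgm1: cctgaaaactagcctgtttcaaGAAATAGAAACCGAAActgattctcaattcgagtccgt
Irgm2: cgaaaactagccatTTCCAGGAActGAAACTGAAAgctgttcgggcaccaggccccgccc
Igtp: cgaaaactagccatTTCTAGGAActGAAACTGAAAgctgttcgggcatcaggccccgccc
Gbp2: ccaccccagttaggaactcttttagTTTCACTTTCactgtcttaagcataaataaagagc
Gbp3: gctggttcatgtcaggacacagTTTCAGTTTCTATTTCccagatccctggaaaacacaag

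These stretches lie at chr11:49064248-49064307 on the minus strand for Tgtp2, chr11:48871413-48871472 on the minus strand for Irgm1, chr11:58214888-58214947 on the plus strand for Irgm2 and chr11:58199497-58199556 on the plus strand for Igtp. For Gbp2 the stretch is chr3:142620579-142620638 and for Gbp3 it is chr3:142559977-142560036, both on the plus strand. The ISRE core was present in 6 of the 6 members with an entry, against 3.44% of all 32851 promoter windows and 3.99% of 27025 genes. In Gbp2 and Gbp3 the capitals read TTTC because the match is on the opposite strand. Irgm1 and Gbp3 each hold 2 ISRE matches that overlap. Gbp3 has a second promoter entry with no match to either motif. The GAS core was present in 3 of 6 members, Tgtp2, Irgm2 and Igtp, against 8.3% of all windows and 9.55% of genes, and because its letters are the same on both strands each site matches in both directions. In these 3 genes 2 bases separate the GAS match from the ISRE match that follows it. Igtp and Irgm2, which are next to each other among protein-coding genes, share 58 of 60 bases in the stretch shown, whereas Tgtp2 shares 41 of 60 with Irgm2 and 40 of 60 with Igtp. Of 8 other interferon-inducible GTPases with an entry, 6 held the ISRE core and 4 the GAS core. A match is a description of letters and not evidence of binding.

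**Figure D1:**
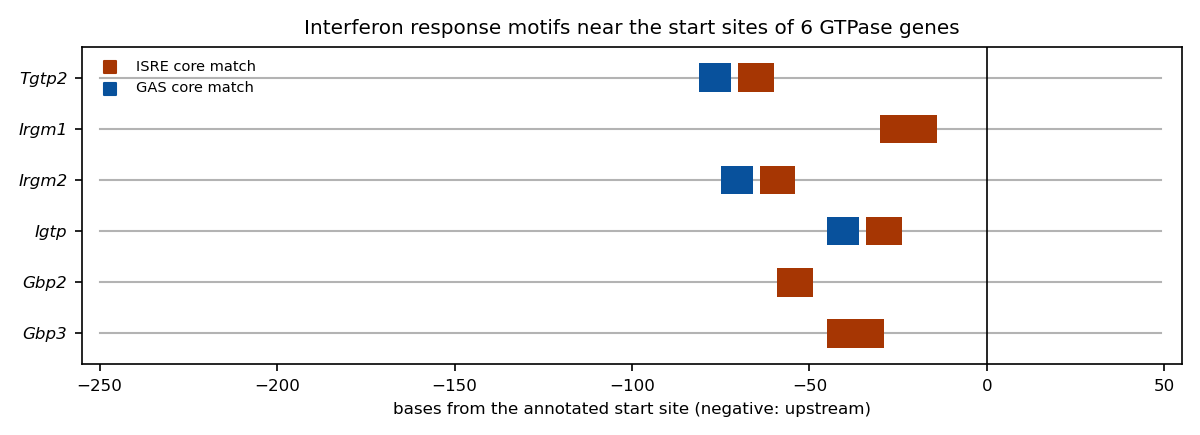
Positions of the ISRE and GAS core matches in the promoter windows of the members, as distance in bases from the RefSeq start site on the horizontal axis, with 1 row per gene and the grey line spanning the window searched. The matches lie between positions -81 and -15, and the GAS core is seen only in Tgtp2, Irgm2 and Igtp.

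Levels are given on 2 scales. The processed signal is the spot's brightness after the scanner software's background subtraction, and the level is its log2 minus the log2 of the 75th percentile of that array. The error of a difference is the scanner software's own modelled error for both spots, and its median was 0.204 over all genes. It stands for the reading of 2 arrays and not the spread between animals. For bright probes it was about 0.204 whatever their signal, so there it acts as a fixed cut and not as a measured error. Each member's main probe was well above background on all 4 arrays. Levels of different genes are not compared, because each probe has its own brightness. The 75th percentile itself was 335, 340, 392 and 317, so the pools are ordered by level and not by signal. A series of 4 values gives the males first and then the females, each as control followed by CB-NP.

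Tgtp2, an effector IRG protein also known as Irgb6, showed the widest spread of the members. Its main probe, A_55_P2062246, gave processed signals of 852 in control males and 2230 in CB-NP males, and 3570 in control females and 3020 in CB-NP females, which correspond to levels of 1.35, 2.71, 3.19 and 3.25. The male control pool was lowest, the male CB-NP pool was next, and the female pools were highest and did not differ beyond the scanner error. The male CB-NP level exceeded the male control level by 1.37 ± 0.20 on the log2 scale, a 2.58-fold difference that ranked 11 from the top of 14186 genes. Between the female pools the difference was 0.06 ± 0.20. The female control exceeded the male control by 1.84, a 3.58-fold difference that ranked 3 from the top of 14164 genes. This sex difference and the male exposure difference take the same male control array, so they are not separate observations of its low value. In the CB-NP pools the female level was 0.54 above the male level.

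A second Tgtp2 probe, A_55_P1989225, was dim, with signals of 8.67, 10.4, 18.9 and 10.6 in the same order of pools, and it was well above background in the female control pool alone. Its male exposure difference was 0.24 ± 0.58 and its female exposure difference was -0.53 ± 0.49, each with at least 1 spot not above background. Tgtp1 is a near-identical copy of Tgtp2 separated from it by 1 protein-coding gene, so which copy a probe reads is uncertain. The probe assigned to Tgtp1 gave signals of 25.1, 22.2, 28.4 and 26.5, with a male difference of -0.20 ± 0.29 and a female difference of 0.21 ± 0.29. Neither difference exceeded the scanner error.

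Iigp1, on chromosome 18, the effector also known as Irga6 that loads onto parasite vacuoles, rested on 2 probes that were both well above background in every pool. The main probe, A_55_P2410304, gave signals of 107, 142, 166 and 177, and levels of -1.65, -1.26, -1.24 and -0.84. The male control pool was lowest and the female CB-NP pool highest, with the male CB-NP and female control pools between them and within the scanner error of each other. The exposure difference was 0.39 ± 0.21 in the males and 0.40 ± 0.21 in the females. The second probe, A_55_P1990633, gave signals of 21.5, 51.9, 52.8 and 68.2, and it placed the male control and female CB-NP pools at the same ends. Its differences were wider, at 1.25 ± 0.27 in the males (2.38-fold), 0.68 ± 0.22 in the females and 1.07 between the control pools. The probes therefore agree on direction and differ in size, and a mean over both gives 0.82 for the male difference.

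Irgm1, a regulatory IRG protein needed in mice for resistance to mycobacteria, had a range of 0.60 over the pools. Its signals were 1200, 1460, 1850 and 1720, and its levels were 1.84, 2.10, 2.24 and 2.44. The male control pool was lowest, and the 3 pools above it did not differ from their neighbours beyond the scanner error. The exposure difference was 0.26 ± 0.20 in the males and 0.20 ± 0.20 in the females. The female level was above the male one by 0.40 between the controls and by 0.34 between the CB-NP pools, both beyond the scanner error. A second Irgm1 probe gave signals of 195, 259, 406 and 314, with an exposure difference of 0.39 in the males and -0.06 in the females, and with the female control 0.83 above the male control.

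Irgm2, a regulatory IRG protein of the Golgi, had nearly the same level in the 4 pools. Its signals were 2850, 3150, 3780 and 2660, and its levels were 3.09, 3.21, 3.27 and 3.07. The highest and lowest pools were 0.20 apart, and no neighbouring pools differed beyond the scanner error. The exposure difference was 0.12 in the males and -0.20 in the females, and the lowest pool was the female CB-NP pool.

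Igtp, a regulatory IRG protein of the endoplasmic reticulum also known as Irgm3, was printed in 10 spots per array and is the member whose reading error within an array can be seen directly. Its mean signals were 3572, 3943, 5835 and 4067, and its levels were 3.41, 3.54, 3.90 and 3.68. The spots of the male control array ran from 3430 to 3740, those of the male CB-NP array from 3820 to 4060, those of the female control array from 5520 to 6030 and those of the female CB-NP array from 3820 to 4270. On the log2 scale their SD was 0.040, 0.027, 0.037 and 0.056 over the 9, 9, 10 and 9 spots used. The female control pool stood above the other pools, while the signals of the CB-NP arrays of both sexes, before centring, overlapped. The exposure difference was 0.12 in the males and -0.22 in the females, and the control pools differed by 0.48 with the female higher. Repeated spots share 1 labelled pool and are not replicates.

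Gbp2, a guanylate-binding protein that coats bacteria and vacuoles and helps to trigger inflammasomes, was higher in both CB-NP pools than in both control pools. Its signals were 589, 914, 827 and 913, and its levels were 0.81, 1.43, 1.08 and 1.53. The CB-NP levels were within the scanner error of each other, and the female control lay between them and the male control. The exposure difference was 0.61 in the males (1.53-fold) and 0.45 in the females (1.37-fold).

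Gbp3, encoded in the same chromosome 3 cluster with 1 protein-coding gene between it and Gbp2, had the same order of pools. Its signals were 409, 616, 514 and 625, and its levels were 0.29, 0.86, 0.39 and 0.98. The control pools did not differ beyond the scanner error, nor did the CB-NP pools. The exposure difference was 0.57 in the males (1.48-fold) and 0.59 in the females.

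**Figure D2:**
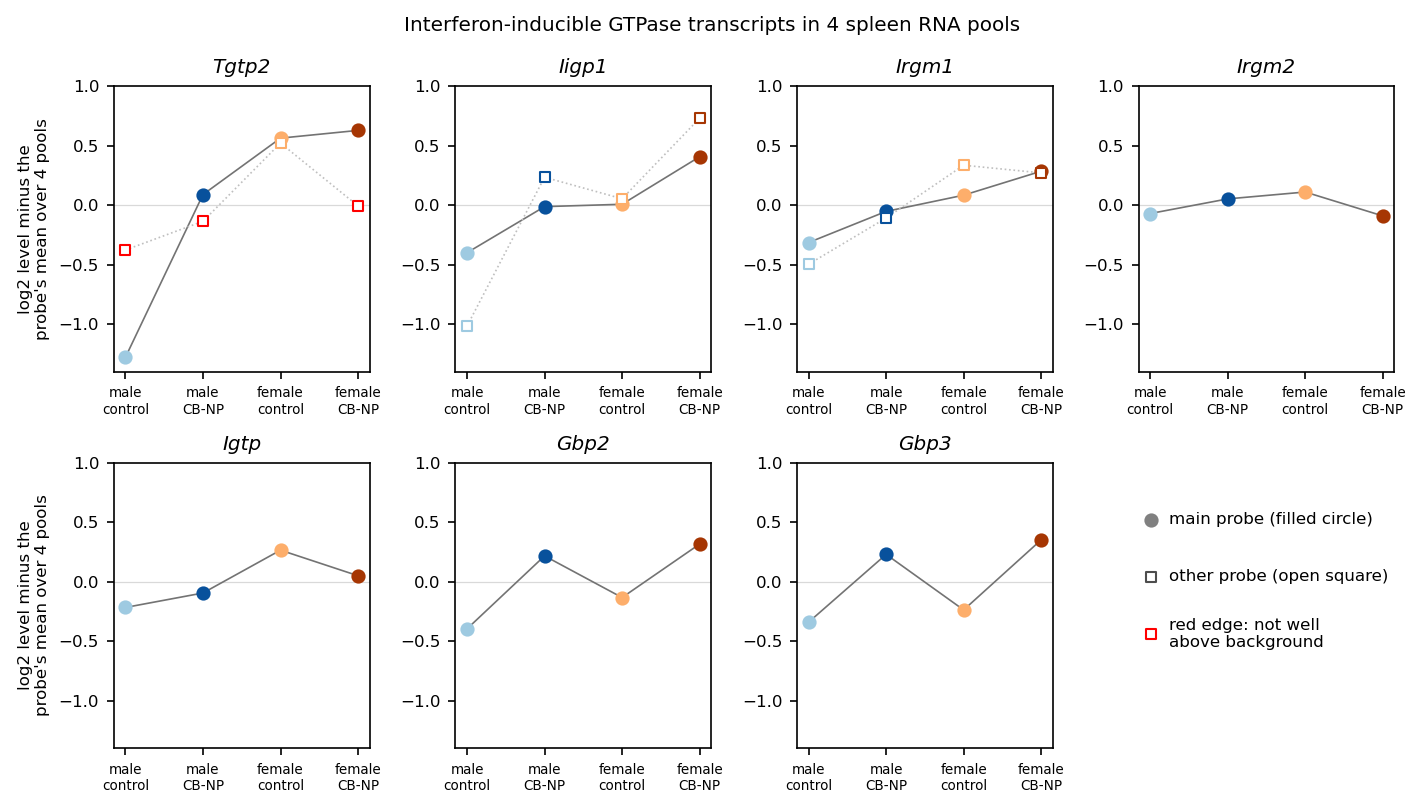
Level of each member in the 4 pools, as the log2 level minus the mean of the same probe over the pools. Filled circles are the main probe, open squares the other probe of Tgtp2, Iigp1 and Irgm1, and a red edge marks a spot not well above background. The main Tgtp2 probe spans 1.91 over the pools, from the male control to the female CB-NP pool, and the range of Irgm2 is 0.20.

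Read as a group, the members were higher in the CB-NP pool in 7 of 7 cases in the males, where 45.2% of all 14186 genes compared were above 0. By more than the scanner error 5 of 7 were higher, against 15.8% of genes, and 1 of 7 was at least 2-fold higher, against 0.352%. None was lower by more than the scanner error, against 15.1%, or at least 2-fold lower, against 0.508%. Their median male difference was 0.39, with a range from 0.12 to 1.37, and the median of all genes was -0.02. Because the members were chosen with these contrasts known, the shares over all genes give the scale and nothing is read from them about the members.

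In the females 5 of 7 members were higher in the CB-NP pool, where 43.3% of 14075 genes were above 0, and the other 2, Irgm2 and Igtp, were lower. By more than the scanner error 3 of 7 were higher, against 19.5% of genes, and 1 of 7 was lower, against 24.9%. No member was at least 2-fold higher, against 0.661%, and none was at least 2-fold lower, against 0.433%. Their median was 0.20, with a range from -0.22 to 0.59, beside -0.04 for all genes. The split by role was the same in both sexes for the GBP genes, with both members higher, while the regulatory IRG genes differed by between -0.22 and 0.26.

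Between the control pools 7 of 7 members were higher in the females, where 52.4% of 14164 genes were above 0. Beyond the scanner error 5 of 7 were higher, against 13% of genes, and 1 of 7 was at least 2-fold higher, against 0.254%. None was lower beyond the scanner error, against 13.9%, or at least 2-fold lower, against 0.522%. Their median was 0.40. Between the CB-NP pools 6 of 7 were higher in the females, where 43% of 14107 genes were above 0, and 3 of 7 were so beyond the scanner error, against 9.97%. None was lower beyond it, against 11.7%, and none was at least 2-fold higher or lower, against 0.39% and 0.269%. Their median there was 0.14. The male control pool was the lowest of the 4 for 6 of 7 members, as it was for 20.9% of genes measured in all pools, and Irgm2 was lowest in the female CB-NP pool, as were 34.7% of genes. The highest pool was the female CB-NP pool for 5 of 7 members, as for 20.9% of genes, and the female control pool for Irgm2 and Igtp, as for 33.3%.

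**Figure D3:**
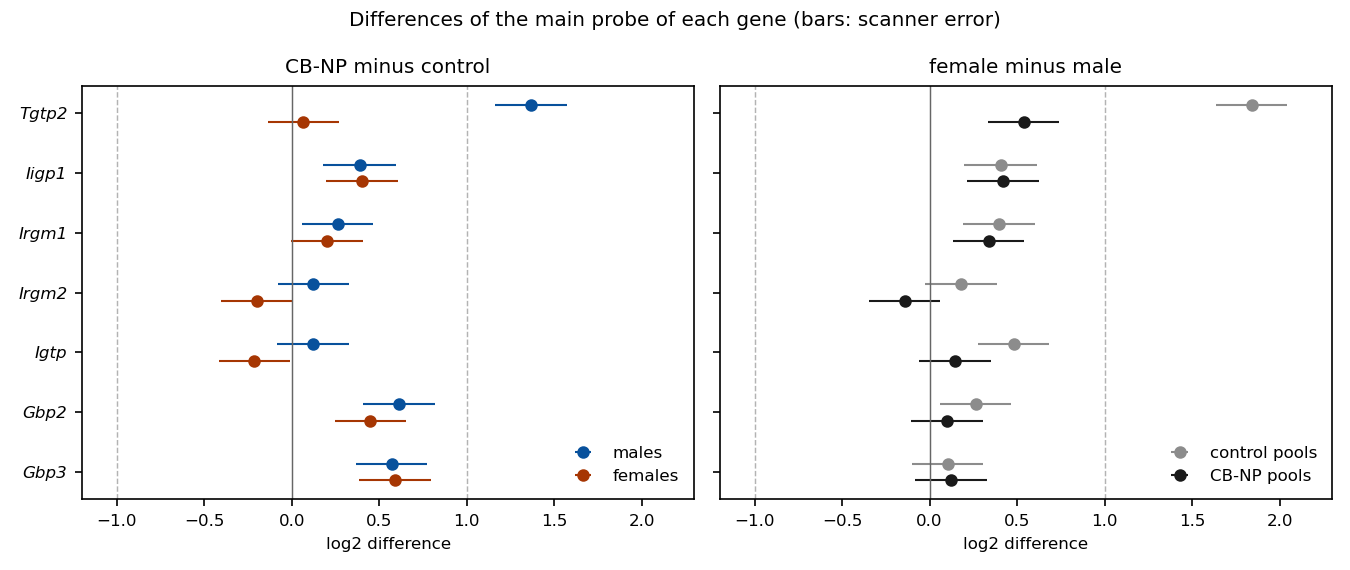
Log2 differences of the members' main probes for CB-NP minus control in each sex and for female minus male in each treatment, with bars for the scanner error of the difference and dashed lines at 2-fold. In the males the differences run from 0.12 to 1.37, and in the females from -0.22 to 0.59.

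The female exposure difference minus the male one was -1.30 ± 0.29 for Tgtp2, where the error is the scanner's. By main probes it was 0.01 for Iigp1, -0.06 for Irgm1, 0.02 for Gbp3 and -0.16 for Gbp2. The second probes gave -0.57 ± 0.35 for Iigp1 and -0.45 ± 0.29 for Irgm1, so for these 2 genes the probes differ. The dim second Tgtp2 probe gave -0.77 ± 0.76. For Irgm2 the value was -0.32 and for Igtp -0.34, and the exposure differences of these 2 genes had opposite signs in the sexes. With 1 pool per group these differences between the sexes could not be tested.

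Tgtp2 was the member whose main probe had a range of at least 1 over the pools, as did 2.93% of genes measured in all 4. The genes whose pattern over the 4 pools was nearest to it, by root mean square distance between centred levels over 13454 genes with a symbol, were Ulk4 at 0.18, the chemokine gene Ccl24 at 0.26 and Mzt1, a gene of the microtubule-nucleating complex, at 0.28. Ulk4 was dim, with signals of 9.22, 27.3, 36.7 and 25.9, and a second Ulk4 probe did not have that order, at 14.9, 26.6, 14.2 and 17.8. Ccl24 gave 211, 426, 619 and 457, and Mzt1 gave 313, 498, 887 and 739. By level, the male control pool was lowest for these 3 genes, and the highest was the female control pool for Ulk4 and Ccl24 and the female CB-NP pool for Mzt1. The genes were picked for their likeness to Tgtp2, so the shared lowest pool follows from that choice. The likeness rests on 4 values per gene.

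The list of other interferon-inducible GTPases held 21 genes, of which 17 had a probe. Gbp11, Mx1, Mx2 and Gm4070 had none here. In the males 12 of 14 compared were higher in the CB-NP pool and 10 of 14 were so beyond the scanner error, with a median of 0.57, where 45.2% and 15.8% of all genes were. In the females 13 of 15 were higher, 12 beyond the scanner error, with a median of 0.52, where 43.3% and 19.5% of all genes were. Between the control pools 9 of 14 were higher in the females, with a median of 0.34, where 52.4% of all genes were. Beyond the scanner error 8 were higher and 3 lower, where 13% and 13.9% of all genes were.

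By main probes, Gbp6 was the gene of this list at least 2-fold different with exposure, a difference seen between the female pools. Its signals were 86.7, 93.2, 85.5 and 170, with differences of 0.08 ± 0.21 in the males and 1.30 ± 0.21 in the females. A second Gbp6 probe gave 0.76 in the males, from a male control spot not well above background, and 0.89 in the females. The next genes were named after their values were seen. Gvin1, which encodes a very large interferon-inducible GTPase, gave signals of 1100, 2140, 1970 and 2310, with differences of 0.94 in the males and 0.54 in the females. Gbp5, whose human counterpart promotes inflammasome assembly, differed by 0.74 in both sexes, and Gbp9 differed by 0.84 and 0.68. A second, dimmer Gbp2b probe gave signals of 18.8, 40.2, 27.8 and 46.8, with differences of 1.08 ± 0.29 and 1.06 ± 0.26, while the main Gbp2b probe gave 0.79 and 0.61. Of the 14 genes of this list measured on all 4 arrays, 9 were lowest in the male control pool, as were 20.9% of all genes so measured.

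**Figure D4:**
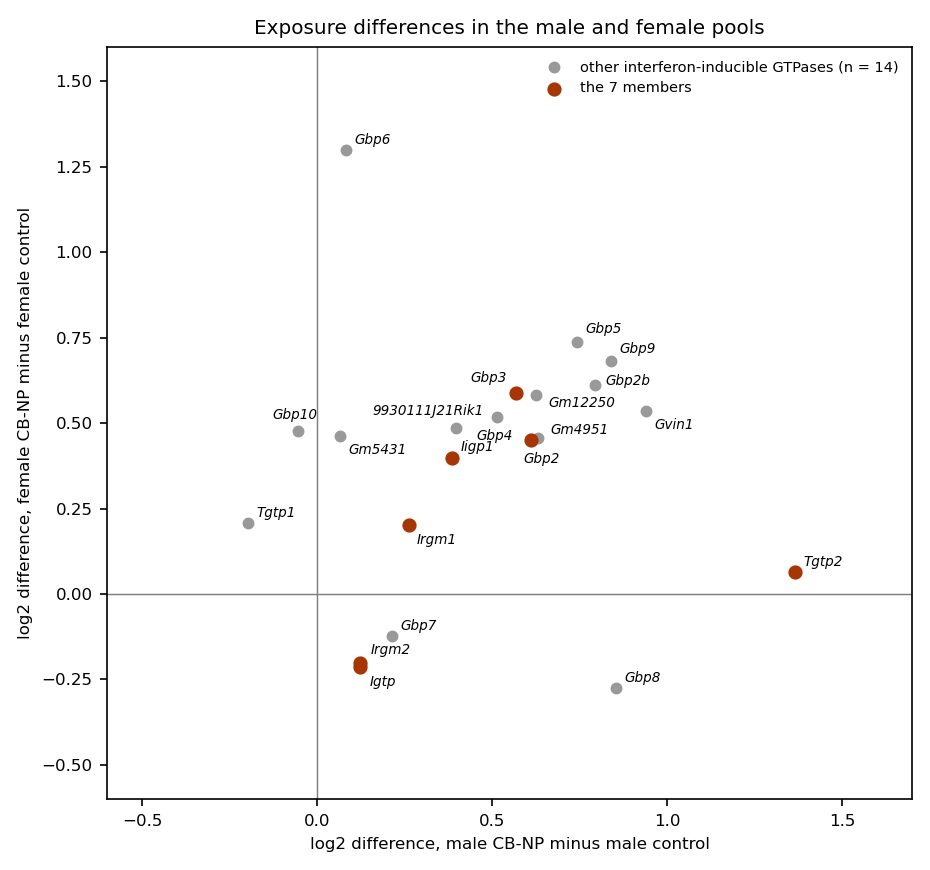
Exposure difference in the males (horizontal axis) against that in the females (vertical axis), both log2 of CB-NP over control, for the 7 members and the 14 other interferon-inducible GTPases compared in both sexes. Tgtp2 lies far to the right near 0 on the vertical axis, and Gbp6 lies high near 0 on the horizontal axis.

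Upstream of the GTPases, Ifng, which encodes interferon gamma, was dim, with signals of 29.9, 40.7, 65.4 and 44.5. The male control pool was lowest and the female control highest. Its exposure difference was 0.42 ± 0.24 in the males and -0.25 ± 0.23 in the females, and the control pools differed by 0.91 with the female higher. The ligand list held interferon genes and also interleukin genes such as Il18, Il27 and Ebi3. Ifnb1, Ifna4, Ifne and Il12a were not well above background on any array. Of the genes of this list compared, 3 of 8 were higher in the CB-NP pool in the males and 3 of 7 in the females. The medians were -0.06 and -0.03, and 45.2% and 43.3% of all genes were higher. Among them Ebi3, a subunit of cytokines of the interleukin 12 family, differed by 0.30 and -0.03, and Il18, a cytokine that promotes interferon gamma release, by -0.19 and 0.07.

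The genes of the receptor and signalling chain differed among themselves. Ifngr1 and Ifngr2, the chains of the interferon gamma receptor, differed by 0.11 and 0.16 in the males and by 0.02 and 0.16 in the females. Jak1 differed by 0.11 and -0.03, and Jak2 by -0.04 and -0.11. Irf1 had the largest male difference of this chain, with signals of 1860, 3200, 3140 and 3400. Its exposure difference was 0.76 ± 0.20 in the males and 0.42 ± 0.20 in the females, and the male control pool was its lowest. Irf8, a partner factor of myeloid and B cells, differed by 0.47 and 0.29. Named after their values were seen, the interferon regulatory factor genes Irf2, Irf7 and Irf9 differed by 0.34, 0.06 and 0.14 in the males and by 0.30, 0.42 and 0.38 in the females. Of the 14 genes of the chain, 12 were higher in the CB-NP pool in the males, 4 of them beyond the scanner error, and 11 in the females, 6 of them beyond it. The list medians were 0.15 and 0.16. Over all genes 45.2% were higher and 15.8% beyond the scanner error in the males, and 43.3% and 19.5% in the females, which is the scale for this list and the lists that follow.

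Of the 8 feedback inhibitors, 7 were higher in the CB-NP pool in the males and 4 in the females, with medians of 0.21 and 0.05. Socs1, which blocks the Jak kinases, differed by 0.24 and 0.42, and the phosphatase genes Ptpn6 and Ptpn2 differed by 0.48 and -0.04 in the males and by 0.29 and -0.06 in the females. Cish, another feedback inhibitor, named after its values were seen, differed by 0.18 and -0.69. Other target genes of interferon gamma were higher in 16 of 19 cases in the males, 11 beyond the scanner error, and in 14 of 17 in the females, 8 beyond it, with medians of 0.25 and 0.20. Psme2, an activator of the proteasome, differed by 0.17 and 0.14, and Gch1, an enzyme of tetrahydrobiopterin synthesis, by -0.18 and 0.06.

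Genes stimulated mainly by type I interferon had another pattern. In the males 9 of 19 were higher in the CB-NP pool, with a median of -0.00, and in the females 16 of 20 were higher, 14 beyond the scanner error, with a median of 0.45. Oas3, a sensor of double-stranded RNA, gave signals of 53.1, 42.5, 29.8 and 60.4, with differences of -0.34 in the males and 1.33 in the females. Ifi44 differed by 1.16 in the females and was not well above background in either male pool. Of the 16 genes of the autophagy and ubiquitin machinery that brings the GTPases to vacuoles, 3 were higher in the males and 5 in the females, with medians of -0.10 and -0.13. Beyond the scanner error 0 of 16 were higher or lower in the males, against 15.8% and 15.1% of genes. In the females 1 was higher and 4 were lower beyond it, against 19.5% and 24.9%. Gabarap and Gabarapl1, which encode proteins of the Atg8 family, differed by -0.08 and -0.19 in the males and by 0.01 and -0.19 in the females.

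**Figure D5:**
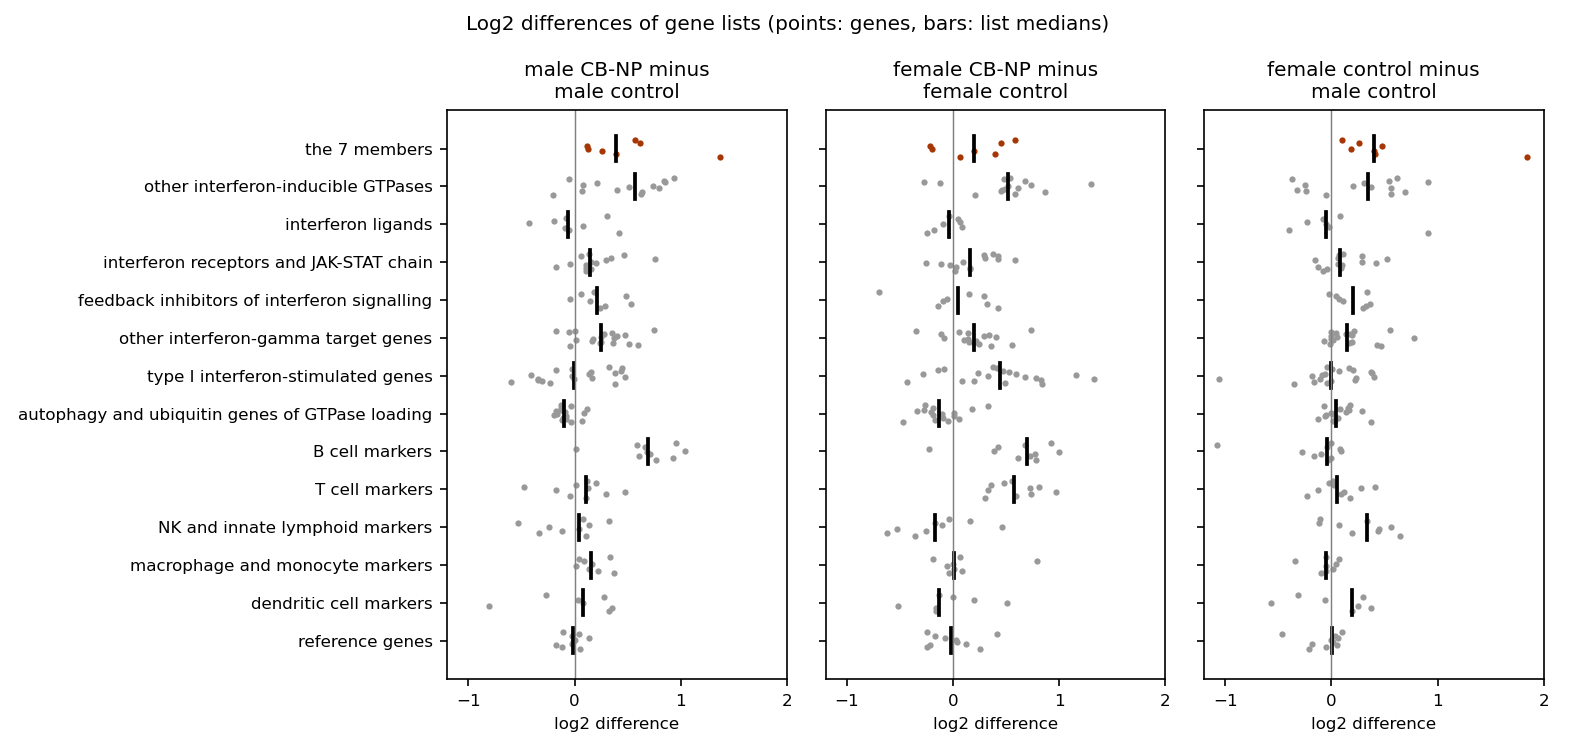
Log2 differences of the genes of each list for CB-NP minus control in the male pools (left) and the female pools (middle) and for female minus male control (right), with 1 point per gene compared and a bar at the list median. The other interferon-inducible GTPases have exposure medians of 0.57 and 0.52, and type I interferon-stimulated genes have exposure medians of -0.00 and 0.45.

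In whole spleen, fewer cells of a type and less RNA per cell cannot be told apart, and the markers of some cell types differed with the exposure. The summed level of 10 B cell markers, as multiples of the array's 75th percentile signal, was 59.7 and 56.4 in the male and female controls and 100.6 and 92.5 in the CB-NP pools. Of these markers 10 of 10 were higher in the CB-NP males and 9 of 10 in the CB-NP females, with a median of 0.70 in each sex, and Ebf1 differed by 1.04 and 0.39. The 10 T cell markers summed to 25.5, 25.9, 25.7 and 34.5, with the CB-NP females highest, and 7 of 10 were higher with exposure in the males and 10 of 10 in the females. The natural killer cell markers, of which Klrk1 was not well above background, summed to 13.3, 13.8, 15.1 and 12.5, and 5 of 9 compared were higher with exposure in the males and 2 of 9 in the females. The 8 macrophage and monocyte markers with a probe summed to 107, 119, 105 and 106, with 8 of 8 higher in the males and 5 of 8 in the females. The dendritic cell markers, of which Xcr1 was not well above background, summed to 194, 198, 186 and 213, but Siglech alone made up 190, 195, 182 and 209.8 of these and the others together 3.54, 3.49, 3.65 and 3.26. Of that list 5 of 7 compared were higher with exposure in the males and 3 of 7 in the females, with medians of 0.08 and -0.13. The 8 neutrophil markers summed to 1331, 1398, 1397 and 1194. With exposure 7 of 8 were higher in the males, 3 beyond the scanner error. In the females 8 of 8 were lower, 6 beyond it, and the medians were 0.14 and -0.34. The natural killer and dendritic cell lists had the same signs of the median, the former at 0.04 and -0.17. Igtp and Irgm2 had these signs too, but Irgm2 was within the scanner error in both sexes and Igtp in the males. With other processing the natural killer median in the males ran from -0.08 to 0.10. The 10 endothelial and stromal markers summed to 56.5, 57.5, 50.3 and 63.3, with 6 of 10 higher in the males and 8 of 10 in the females, 7 beyond the scanner error, and medians of 0.09 and 0.27. The 8 erythroid markers summed to 3513, 3345, 3027 and 3479. With exposure 0 of 8 were higher in the males and 4 of 8 in the females, with medians of -0.07 and -0.04. The brightest of them, Hba-a1 and Hbb-bt, weigh most in the sum and differed by 0.27 each in the females. The part of these marker differences in the members' differences was not tested.

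Spleen identity was checked with its patterning genes Nkx2-3 and Tlx1, which were well above background on all 4 arrays, as were 10 of 10 B cell and 8 of 8 erythroid markers. The 10 markers of pancreatic acinar cells, an organ that touches the spleen, were all well above background in both control pools, with summed levels of 21.3 and 17.4. In the CB-NP pools 5 of 10 were, with summed levels of 0.52 and 0.65, and Amy2a5, Pnliprp1, Prss1, Try4 and Try5 were not. Their part in the members' differences was not tested. The reference genes had medians of -0.02 in the males and -0.02 in the females. In the males they ran from -0.18 to 0.14, with 0 of 10 beyond the scanner error. In the females they ran from -0.25 to 0.41, with 2 of 10 higher and 3 of 10 lower beyond it.

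Over the whole series, 59305 non-control spots were read per array, of which 57.3% to 59.0% were well above background, and no spot was saturated. In all, 13933 genes passed that mark in every pool. The arrays lay on 1 slide, each at its own position, so position and group cannot be told apart.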

How the data were processed

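Agilent arrays of design 028005 (build mm9) were scanned in 1 colour and read by the authors with Feature Extraction 10.10.1.1, per the file headers. The deposited processed signal is an intensity on a linear scale, already background-subtracted within each array. Other deposited columns hold its propagated error and 0 or 1 flags for detection above background, saturation and outliers. The authors also deposited a value table of intensity, in which each array's processed signal was multiplied by a constant (3.10 and 3.18 for control and CB-NP males, 2.64 and 3.49 for control and CB-NP females). Its column medians were 75.2, 76.1, 68.9 and 79.4, and what it was scaled to is not given in the sources used here.

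Spots of a probe were averaged without outlier-marked spots, and log2 signals were centred on each array's 75th percentile. Of 55681 probes, 26762 matched 20284 genes through RefSeq accessions (names and chromosomes only, GRCm38.p6). A gene was compared where its main probe was well above background on both arrays. Precision is limited by the number of arrays (1 per group), so no test was run. Members, gene lists and naming rule were chosen with earlier results of these data known. Genes named were the members, Ifng, Ifngr1, Ifngr2, Jak1, Jak2, Irf1, Irf8 and Socs1, genes of other lists at least 2-fold different (otherwise the 2 brightest), and the 3 nearest in pattern. Of marker and reference genes that this rule gives, most are covered by their lists' sums and medians and not named, and 1 pathway gene is not reported here. Alternatives were other background correction (limma 3.58.1 normexp, offset 50), scaling, probe choice and filters. The calculations were checked on simulated data. Python 3.11.15, pandas 2.3.3, numpy 2.4.6 and R 4.3.3 were used.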

Additional observations from a re-analysis of the deposited data

Results flagged for a closer look

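The GTPases and named pathway genes given here had exposure differences of opposite signs in the male and female pools. The share of all genes with opposite signs was not computed, so nothing is read from their number. Cish was among them and was named after its values were seen. Each sex is 1 pair of pools, and the difference was not tested. The values are the female exposure difference minus the male one on the log2 scale. Among the members, Irgm2 had -0.32 and Igtp had -0.34. Among the other GTPases, Tgtp1 had 0.40, Gbp7 had -0.34, Gbp8 had -1.13 and Gbp10 had 0.53. For the ligand and signalling genes, Ifng had -0.67, Ebi3 -0.34, Il18 0.26, Jak1 -0.13 and Cish -0.87. For the target and autophagy genes, Gch1 had 0.23, Oas3 1.67 and Gabarap 0.092. For Irgm2, Tgtp1, Jak1, Il18, Gch1 and Gabarap neither sex's own difference exceeded the scanner error. Gbp8 had signals of 49.7 in control males and 91.2 in CB-NP males, against 109 in control females and 72.8 in CB-NP females. Other genes of the pathway lists, not named here, also had opposite signs.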

How the results depend on the processing

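No paired analysis was possible because each group held 1 array. Under 8 alternatives, 221 of 224 member differences moved by less than the scanner error. The exceptions came from averaging all probes of a gene, which gave 0.82 for Iigp1 between the male pools, 0.74 for Iigp1 between the control pools and 0.61 for Irgm1 between the control pools. Many of the 224 could not move, so the count overstates stability. Dropping the detection filter could change no member. Keeping outlier spots could change only a member with several spots, and averaging probes only one with several probes. The female Tgtp2 difference turned to -0.05 with median centring, which moves the median of all genes by -0.11 between the female pools and 0.12 between the control pools. The count of members at least 2-fold different was the same under each alternative run, some of which could not change it. The member median ran from 0.27 to 0.57 in the males, from 0.07 to 0.29 in the females, from 0.30 to 0.52 between the controls and from 0.11 to 0.18 between the CB-NP pools. Of 544 list medians under the alternatives, 5 moved by more than the scanner error and 41 had the other sign. In the females the median of the feedback inhibitors ran from -0.06 to 0.14 and that of the ligands from -0.14 to 0.08. For other GTPases the male median was 0.35 with normexp background correction. Acinar medians were -2.82 in the males and -2.30 in the females with it, and -5.45 and -4.99 with no detection filter. Over all genes, those at least 2-fold higher and lower in the males numbered 50 and 72, 69 and 61 in the authors' value table, 11 and 24 with normexp, and 430 and 669 with no filter. In the females they numbered 93 and 61, 65 and 88 with median centring, 78 and 79 with quantile normalization, 140 and 50 in the authors' value table, 121 and 54 with centring on detected probes, 20 and 30 with normexp, and 650 and 455 with no filter. Between the controls they numbered 36 and 74, 57 and 46 with median centring, 50 and 54 with quantile normalization, 9 and 6 with normexp, and 415 and 621 with no filter. Between the CB-NP pools they numbered 55 and 38, 7 and 6 with normexp, and 614 and 406 with no filter.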

Other observations

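Fcgr1, which encodes a high-affinity antibody receptor and is a classic interferon gamma target of macrophages, ran opposite to the 7 members between the male pools. No direction is given for the females, where neither pool was well above background. Fcgr1 was named after its values were seen and rests on 1 probe, so a fault of that spot cannot be told apart from a difference in RNA. Its signals were 55.5 in control males and 6.9 in CB-NP males, against 7.46 in control females and 6.54 in CB-NP females, and it was well above background in the male control pool alone. There it was at least 6.57-fold higher than in the male CB-NP pool and at least 6.24-fold higher than in the female control pool, with the dim side set to the lowest signal among probes well above background on that array.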
